A study of Mus musculus with 9 samples.

Results

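The nuclear-encoded subunits of the mitochondrial respiratory chain were followed in brain RNA of 8-month-old mice on an Illumina bead array. They were taken as the probes whose identifier carries the NCBI gene number of a gene with a symbol that starts with Ndufa, Ndufb, Ndufc, Ndufs, Ndufv, Uqcr, Cox4 to Cox8 or Atp5, or of Sdha, Sdhb, Sdhc, Sdhd, Cyc1 or Cycs. This gave 62 probes for 54 genes, out of 46116 probes in all, of which 9832 could be named for 8127 genes in the same way. The reference table lists 117 genes with such symbols, pseudogenes included, and the others had no probe named in this way. A probe was called above background on an array when its detection p was under 0.05, and it was compared when this held on at least 4 of the 9 arrays. Of the 62 probes 56, for 51 genes, passed, and 55 of them were above background on all 9 arrays. The other 6 were above background on none. By complex, the 51 genes were 20 of complex I, 5 assembly factors of complex I, which the prefix Ndufa also takes, 2 of complex II, 5 of complex III, 9 of complex IV, 9 of ATP synthase and Cycs.

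The comparison was of 4 arrays titled knockout, from mice lacking CAIX, with 5 arrays titled wild type. The missing protein, carbonic anhydrase IX, encoded by Car9, is a membrane enzyme that turns carbon dioxide and water into bicarbonate and protons at the cell surface. Both groups had the C57BL/6 background, and each array was treated as 1 mouse. How the null allele was made, the sex of the mice and the part of the brain are not given in the labels. The design text counts 4 knockout and 5 wild-type mice, so p-values measure the spread between these 9 animals.

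The respiratory chain sits in the inner mitochondrial membrane. Complex I takes electrons from NADH and complex II takes them from succinate; both pass them by way of coenzyme Q to complex III, from which cytochrome c carries them to complex IV, where oxygen is reduced to water. Complexes I, III and IV pump protons, and ATP synthase uses the returning protons to make ATP. Most subunits are encoded in the nucleus, while a small core of complexes I, III, IV and ATP synthase is encoded by mitochondrial DNA. Neurons depend on this pathway for most of their ATP, which restores the ion gradients that synaptic activity runs down.

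Signals are given on the log2 scale after background correction and quantile normalization, on which a difference of 1 is a doubling. Each array had 14895 to 17325 probes above background, median signals before normalization ranged from 133.2 to 209.8, and arrays correlated at r = 0.975 to 0.994 over the 16375 probes compared. No probe was matched to Car9. The neomycin resistance probe NeoR-S lay between 9.90 and 10.56 on the arrays titled knockout, above background on 4 of 4, and between 6.78 and 6.82 on those titled wild type, above it on 0 of 5. Titles and genotype characteristics conflict for 6 of the 9 samples, and 4 arrays lie under different samples in the deposited tables, so every difference by title was also computed under the other readings of the labels. Xist was at 10.89 on knockout 1 and at 10.46 and 10.47 on wild type 1 and 2, and at 6.83 to 6.93 on the other arrays. Eif2s3y, also sex-linked, ran the other way. It was at 6.79 on knockout 1, at 6.80 and 6.87 on wild type 1 and 2, and at 7.44 to 8.08 on the other arrays. Both groups thus differed within themselves in sex-linked transcripts. Of the marker lists, 5 of 7 neuronal, 5 of 6 astrocyte and 6 of 6 oligodendrocyte genes with a named probe were above background. Snap25, Nefl and Gfap, defining genes of neurons and astrocytes, were not above background at their named probes.

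No respiratory chain probe differed between knockout and wild type after adjustment. Of 56 probes 0 had an adjusted p under 0.05 (limma, Benjamini-Hochberg over all probes), where 0.0244% of all probes did. At an unadjusted p under 0.05 there were 2, Ndufb3 with a higher and Sdhb with a lower mean in the knockout. That is 3.57% of the member probes, where 11.5% of all probes were at that level, 6.55% higher and 4.90% lower. Taking for each gene its probe of highest mean signal, 26 genes had a higher and 25 a lower mean in the knockout. The median log2 difference was 0.00040 over the 51 genes and -0.00035 over all probes compared.

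The precision of these differences varied by gene. The 95% interval included 0 for 49 of 51 genes and lay within 0.5 of 0 on both sides for 44. It was wider for Ndufa6, Ndufb4, Ndufb5, Ndufaf8, Cox7b, Atp5k and Atp5md. All 51 intervals lay within 1 of 0. In bulk tissue fewer cells of a type and less RNA per cell cannot be told apart, and the number of arrays limits the precision.

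**Figure D1:**
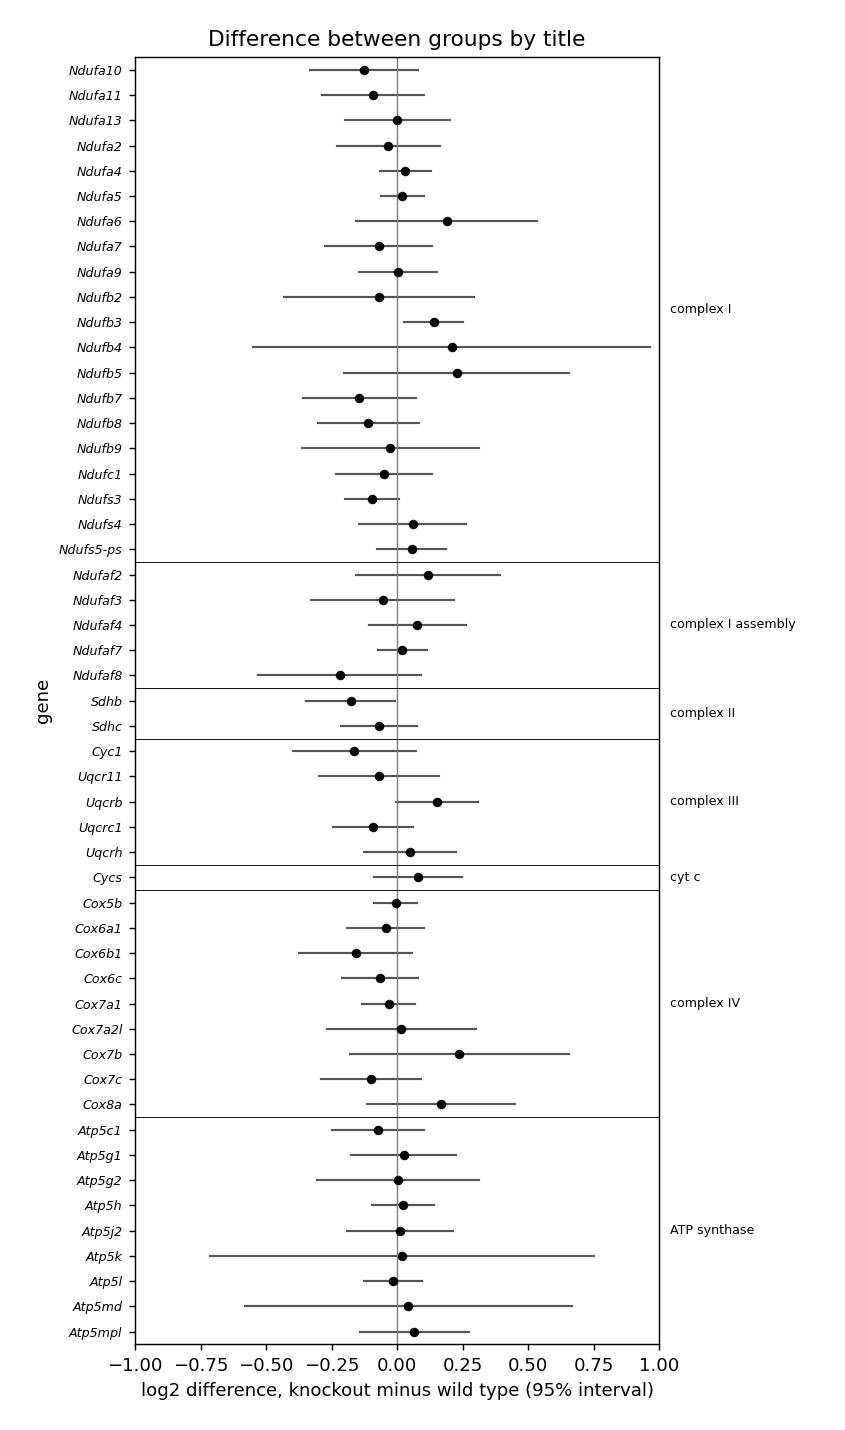
Log2 difference, knockout minus wild type by title, for the 51 respiratory chain genes, grouped by complex (x axis, log2 units). Points are the differences from limma and lines their 95% intervals, which include 0 for 49 genes and are widest for Ndufb4, Atp5k and Atp5md.

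The bases before the transcription start are shown for the genes on which the results turn: Ndufb3 and Sdhb, with the smallest unadjusted p among the genes, Ndufb4 and Atp5k, with the widest spread between arrays, and Ndufs3, which had its lowest value on the array where Ndufb4 and Atp5k had their highest. Nuclear respiratory factor 1 (NRF1) and the ETS-family factor GABP are known activators of respiratory chain genes, and the CCAAT box is a common element of promoters. Searched on both strands were the core NRF1 letters, GCGCA, any base and GCGC without a gap, CCGGAAG for the ETS core and CCAAT. Capitals mark each match. The sequences are 5′ to 3′ on the strand of the gene, from RefSeq (GRCm38.p6), and end at the base before the annotated start.
Ndufb3, chr1:58586277-58586396, strand +, 120 bases: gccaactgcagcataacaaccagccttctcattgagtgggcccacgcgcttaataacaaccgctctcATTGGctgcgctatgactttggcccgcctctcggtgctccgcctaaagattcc
Sdhb, chr4:140961151-140961270, strand +, 120 bases: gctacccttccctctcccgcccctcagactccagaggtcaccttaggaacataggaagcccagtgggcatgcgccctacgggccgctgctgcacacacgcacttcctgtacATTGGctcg
Ndufb4, chr16:37654369-37654618, strand -, 250 bases: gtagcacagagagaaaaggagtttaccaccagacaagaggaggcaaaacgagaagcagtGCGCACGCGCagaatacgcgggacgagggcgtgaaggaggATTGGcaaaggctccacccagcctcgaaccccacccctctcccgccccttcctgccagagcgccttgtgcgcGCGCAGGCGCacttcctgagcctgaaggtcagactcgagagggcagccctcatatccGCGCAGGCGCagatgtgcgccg
Atp5k, chr5:108434400-108434519, strand -, 120 bases: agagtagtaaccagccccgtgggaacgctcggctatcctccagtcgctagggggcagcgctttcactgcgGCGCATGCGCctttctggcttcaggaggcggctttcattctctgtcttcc
Ndufs3, chr2:90904722-90904841, strand -, 120 bases: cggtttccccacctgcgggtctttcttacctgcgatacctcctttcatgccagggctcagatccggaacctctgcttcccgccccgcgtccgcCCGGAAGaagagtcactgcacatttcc

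Ndufb4 had 3 matches to the NRF1 letters, which begin 191, 79 and 22 bases before the start, and 1 CCAAT box on the other strand. Atp5k had 1 match to the NRF1 letters, 50 bases before the start, and Ndufs3 had 1 ETS core, 27 bases before it. Ndufb3 and Sdhb each had 1 CCAAT box on the other strand, at 53 and 9 bases before the start. No matches overlapped in these stretches. Of the 51 genes 43 had a window in the RefSeq promoter table, 46 windows in all. In the 250 bases before the start, the NRF1 letters were found in 10 of 46 windows (21.7%), against 3.74% of all 32851 windows and 5.18% of those of protein-coding genes. The ETS core was found in 9 (19.6%), against 6.91% and 8.98%, and the CCAAT box in 23 (50%), against 33.8% and 35.4%. The NRF1 letters were present upstream of Atp5c1, Atp5g2, Atp5h, Atp5k, Cox6a1, Ndufa11, Ndufa5, Ndufaf4 and Ndufb4. Atp5md, Cox7b and Ndufb5, which like Ndufb4 and Atp5k were highest on knockout 4, had no match to them. Cyc1, lowest on knockout 4, had no window. The matches describe the letters in the window and say nothing of binding.

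Complex I was represented by 20 genes, 10 with a higher and 10 with a lower mean in the knockout, and a median difference of -0.013. Ndufb3, a small accessory subunit of the membrane arm, was at 10.41, 10.44, 10.45 and 10.56 on knockout 1 to 4, against 10.40, 10.33, 10.23, 10.30 and 10.37 on wild type 1 to 5. It was the 1 of 56 member probes whose groups did not overlap, where 3.68% of all probes did not, although knockout 1 and wild type 1 lay next to each other. Its means were 10.46 ± 0.069 (SD, n = 4) in knockout and 10.32 ± 0.067 (SD, n = 5) in wild type, a difference of 0.14 (SE 0.049, limma, adjusted p = 0.329).

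Ndufs3, a core subunit of the matrix arm, had 2 probes above background. The brighter was at 11.24, 11.27, 11.21 and 11.08 on knockout 1 to 4, against 11.31, 11.27, 11.34, 11.30 and 11.26 on wild type 1 to 5, with a difference of -0.096 (SE 0.045, adjusted p = 0.466, limma). The other was at 8.39, 8.37, 8.36 and 7.71 on knockout 1 to 4, against 8.55, 8.52, 8.49, 8.45 and 8.32 on wild type 1 to 5, with a difference of -0.26 (SE 0.14, adjusted p = 0.522, limma). On both probes knockout 4 was the lowest of all arrays. Ndufs4, an accessory subunit whose loss in humans causes Leigh syndrome, went the other way on that array. Its probes were at 11.53, 11.53, 11.56 and 11.98 on knockout 1 to 4, against 11.58, 11.62, 11.56, 11.62 and 11.55 on wild type 1 to 5, and at 11.40, 11.33, 11.26 and 11.70 on knockout 1 to 4, against 11.30, 11.38, 11.29, 11.34 and 11.30 on wild type 1 to 5. Knockout 4 was the highest on both, and the differences were 0.059 and 0.10 (adjusted p = 0.870 and 0.702, limma).

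Of the other complex I genes of smallest p, Ndufb7, a subunit of the intermembrane-space side, was at 7.60, 7.30, 7.38 and 7.69 on knockout 1 to 4, against 7.77, 7.45, 7.55, 7.68 and 7.72 on wild type 1 to 5, a difference of -0.14 (SE 0.095, adjusted p = 0.626, limma). Ndufa10, an accessory subunit of the membrane arm, was at 11.79, 11.56, 11.37 and 11.78 on knockout 1 to 4, against 11.83, 11.82, 11.79, 11.61 and 11.71 on wild type 1 to 5, a difference of -0.13 (SE 0.092, adjusted p = 0.669, limma). For both the groups overlapped, and knockout 2 and 3 lay below the wild-type arrays while knockout 1 and 4 lay among them. Ndufb4, a membrane-arm accessory subunit, was at 9.02, 9.35, 8.80 and 10.49 on knockout 1 to 4, against 8.55, 9.49, 9.35, 9.17 and 9.46 on wild type 1 to 5. Knockout 4 stood above every other array and wild type 1 below every other one, so that a difference of 0.21 had an interval of -0.55 to 0.97. Ndufb5, of the same arm, had the same 2 extremes, at 11.40 on knockout 4 and 10.25 on wild type 1, with a difference of 0.23. Ndufb2 and Ndufb9 were also highest on knockout 4, at 8.05 and 10.998, with differences of -0.069 and -0.027, where no other array exceeded 7.63 and 10.53. The values of Ndufb2 and Ndufb7 were low, at 7.15 to 8.05 and 7.30 to 7.77, though above background on all arrays.

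Among the remaining complex I genes Ndufa5 and Ndufa4 varied least, with SDs over all 9 arrays of 0.037 and 0.055 and differences of 0.019 and 0.031. Ndufa4 is grouped here by its name, although its protein has since been assigned to complex IV. Ndufa13, also known as GRIM-19, differed by 0.00040, with an interval of -0.20 to 0.20. Differences of Ndufa2, Ndufa6, Ndufa7, Ndufa9, Ndufa11, Ndufb8 and Ndufc1 ran from -0.11 for Ndufb8 to 0.19 for Ndufa6, which also varied widely, with an SD over all 9 arrays of 0.26. The probe numbered for the pseudogene Ndufs5-ps was bright on all arrays, at 12.06 to 12.35, and transcripts of near-identical copies cannot be told apart on it. Ndufab1, the mitochondrial acyl carrier protein, and a further probe of Ndufc1 were above background on no array.

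The 5 measured assembly factors, proteins that help to build complex I and are not part of it, had a median difference of 0.020, with 3 higher and 2 lower means. Ndufaf8 was at 8.05, 7.60, 7.75 and 8.23 on knockout 1 to 4, against 8.18, 8.15, 8.26, 7.81 and 8.23 on wild type 1 to 5, a difference of -0.22 (SE 0.14, adjusted p = 0.603, limma). Knockout 2, knockout 3 and wild type 4 were low and the other arrays high, so the groups overlapped. Ndufaf2 was at 10.40, 10.25, 10.14 and 10.74 on knockout 1 to 4, against 10.42, 10.28, 10.34, 10.04 and 10.24 on wild type 1 to 5, a difference of 0.12. Ndufaf4 was at 8.24, 8.01, 7.95 and 8.29 on knockout 1 to 4, against 7.97, 8.18, 7.95, 8.02 and 8.11 on wild type 1 to 5, a difference of 0.077. Ndufaf7, a methyltransferase that acts on complex I, was near background at 6.95, 6.97, 6.98 and 7.01 on knockout 1 to 4, against 6.88, 7.05, 6.94, 6.99 and 6.93 on wild type 1 to 5, and was above it on 7 of 9 arrays. Ndufaf3 differed by -0.056, and Ndufaf6 was above background on no array. Adjusted p of the 5 ran from 0.603 upward.

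Complex II, succinate dehydrogenase, also acts in the tricarboxylic acid cycle and has no subunit encoded by mitochondrial DNA. Sdhb, its iron-sulfur subunit, was at 11.42, 11.19, 11.02 and 11.33 on knockout 1 to 4, against 11.42, 11.45, 11.39, 11.37 and 11.46 on wild type 1 to 5. Wild-type arrays lay close together, while knockout 2, 3 and 4 lay below all of them and knockout 1 among them. Means were 11.24 ± 0.17 (SD, n = 4) in knockout and 11.42 ± 0.038 (SD, n = 5) in wild type, a difference of -0.18 (SE 0.075, limma, adjusted p = 0.414). Sdhc, a membrane anchor, was at 10.83, 10.78, 10.80 and 10.85 on knockout 1 to 4, against 11.003, 10.88, 10.79, 10.72 and 11.01 on wild type 1 to 5, with overlapping groups and a difference of -0.069 (SE 0.064, adjusted p = 0.751, limma). The probe of Sdha, the flavoprotein that binds succinate, and a further probe of Sdhc were above background on no array.

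Complex III had 5 genes, 2 with a higher and 3 with a lower mean and a median difference of -0.070. Uqcrb, which helps to bind ubiquinone, was at 10.14, 10.20, 10.37 and 10.42 on knockout 1 to 4, against 10.08, 10.14, 10.02, 10.21 and 10.21 on wild type 1 to 5. Knockout 3 and 4 lay above every wild-type array and knockout 1 and 2 among them, a difference of 0.15 (SE 0.070, adjusted p = 0.454, limma). Cyc1, the cytochrome c1 subunit that hands electrons to cytochrome c, had the opposite order, at 11.13, 11.21, 10.83 and 10.74 on knockout 1 to 4, against 11.26, 11.18, 11.21, 11.06 and 10.99 on wild type 1 to 5. Knockout 3 and 4 were the lowest of all arrays, and the difference was -0.16 (SE 0.10, adjusted p = 0.606, limma). Uqcrc1, a core protein, was at 12.03, 12.13, 11.86 and 12.15 on knockout 1 to 4, against 12.16, 12.24, 12.16, 12.02 and 12.10 on wild type 1 to 5, a difference of -0.092. Uqcr11 was at 11.94, 11.56, 11.87 and 12.02 on knockout 1 to 4, against 11.97, 11.76, 12.02, 11.79 and 12.04 on wild type 1 to 5, a difference of -0.070, and Uqcrh differed by 0.050. Cycs, cytochrome c itself, was at 11.22, 11.22, 11.13 and 11.40 on knockout 1 to 4, against 11.15, 11.30, 11.27, 11.03 and 11.07 on wild type 1 to 5. Its groups overlapped, with a difference of 0.080 (SE 0.074, adjusted p = 0.752, limma).

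**Figure D2:**
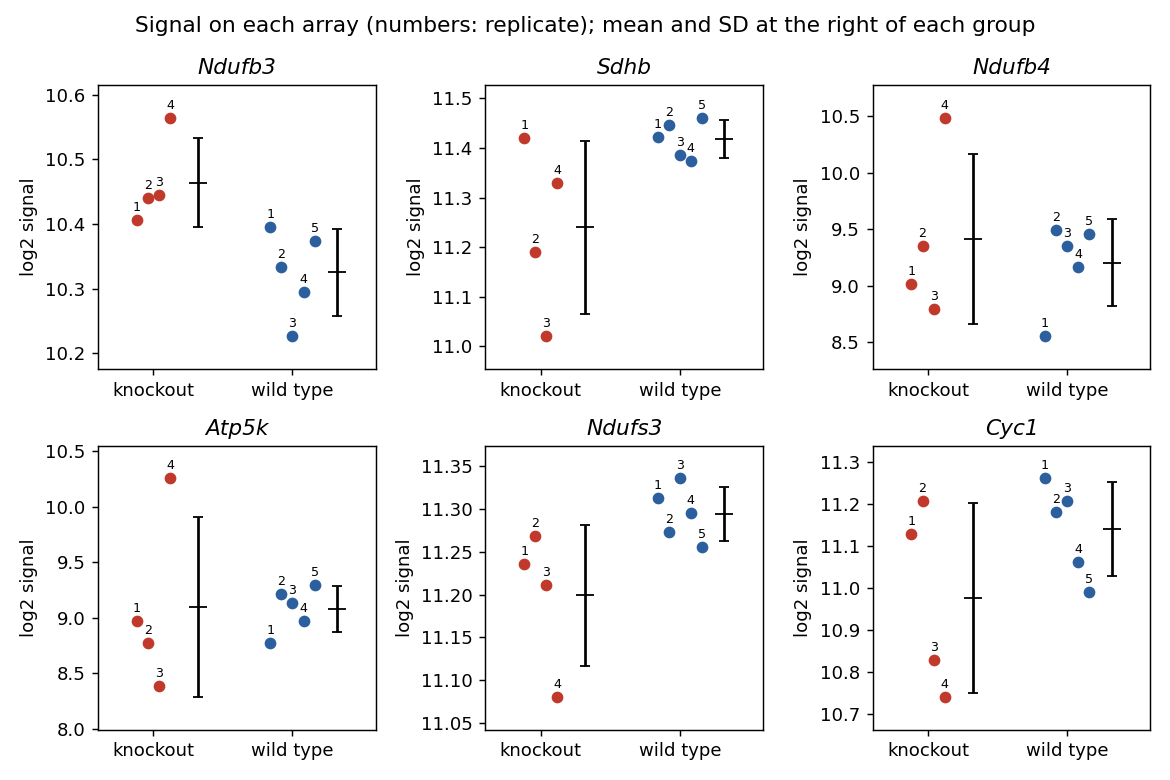
Log2 signal (y axis, a scale of its own for each gene) on each array for Ndufb3, Sdhb, Ndufb4, Atp5k, Ndufs3 and Cyc1, with knockout at the left and wild type at the right of each panel. Numbers give the replicate and bars the mean and SD; knockout 4 is the highest array for Ndufb3, Ndufb4 and Atp5k and the lowest for Ndufs3 and Cyc1.

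Complex IV, cytochrome c oxidase, had 9 genes on 12 probes, all above background on every array, with 3 higher and 6 lower means and a median difference of -0.032. Cox6b1, a subunit that faces the intermembrane space, was at 12.43, 12.28, 12.13 and 12.39 on knockout 1 to 4, against 12.72, 12.55, 12.42, 12.32 and 12.33 on wild type 1 to 5, a difference of -0.16 (SE 0.096, adjusted p = 0.583, limma). Its other probe was at 11.83, 11.63, 11.58 and 12.07 on knockout 1 to 4, against 12.003, 11.94, 11.63, 11.71 and 11.75 on wild type 1 to 5, a difference of -0.030. Wild type 1 and 2 were high and knockout 3 lowest on both probes, while knockout 4 was the highest on the second only. Cox8a, the ubiquitous form of subunit 8, was at 13.40, 13.50, 13.51 and 14.03 on knockout 1 to 4, against 13.61, 13.32, 13.39, 13.35 and 13.53 on wild type 1 to 5, with knockout 4 above the rest and a difference of 0.17 (SE 0.13, adjusted p = 0.678, limma). Cox7b was at 7.40, 7.42, 7.34 and 8.26 on knockout 1 to 4, against 7.09, 7.50, 7.43, 7.48 and 7.33 on wild type 1 to 5, with the same array on top, wild type 1 lowest and a difference of 0.24 (SE 0.19, adjusted p = 0.697, limma). Apart from knockout 4 its values were close to background, though above it on all arrays. Cox7c was at 12.88, 12.69, 12.67 and 13.01 on knockout 1 to 4, against 13.06, 12.95, 12.95, 12.83 and 12.77 on wild type 1 to 5, with overlapping groups and a difference of -0.099.

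Cox5b, a nuclear subunit that lies on the matrix side, was among the steadiest members on its brighter probe, at 13.59, 13.49, 13.56 and 13.52 on knockout 1 to 4, against 13.54, 13.56, 13.55, 13.59 and 13.49 on wild type 1 to 5, a difference of -0.0059 with an interval of -0.088 to 0.077. The other Cox5b probe was at 12.06, 11.67, 11.97 and 11.77 on knockout 1 to 4, against 11.97, 11.86, 12.14, 11.87 and 12.03 on wild type 1 to 5, a difference of -0.11, and spread more widely. Cox6a1, the form of subunit 6A found in most tissues, was at 13.29, 13.29, 13.36 and 13.54 on knockout 1 to 4, against 13.41, 13.36, 13.45, 13.54 and 13.31 on wild type 1 to 5, and on its other probe at 13.34, 13.26, 13.29 and 13.52 on knockout 1 to 4, against 13.48, 13.35, 13.39, 13.46 and 13.35 on wild type 1 to 5, with differences of -0.044 and -0.053. Cox7a1 encodes the form of subunit 7A typical of heart and skeletal muscle. It was close to background but above it on all arrays, at 7.27 to 7.35 in knockout and 7.24 to 7.44 in wild type, a difference of -0.032. Its relative Cox7a2l, a factor that joins complexes III and IV in supercomplexes, ran from 10.40 to 10.97 in knockout and from 10.40 to 10.79 in wild type, a difference of 0.015. Cox6c differed by -0.065.

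ATP synthase had 9 genes, 7 with a higher and 2 with a lower mean, with differences from -0.072 to 0.066 and a median of 0.019, and the smallest adjusted p was 0.790 (limma). Atp5c1, the rotating gamma subunit of the catalytic part, was at 12.55, 12.33, 12.20 and 12.51 on knockout 1 to 4, against 12.42, 12.49, 12.42, 12.41 and 12.61 on wild type 1 to 5, a difference of -0.072 (SE 0.077). Atp5h, subunit d of the peripheral stalk, was at 13.59, 13.59, 13.43 and 13.68 on knockout 1 to 4, against 13.57, 13.53, 13.62, 13.52 and 13.52 on wild type 1 to 5, a difference of 0.021 (SE 0.053). In both genes the groups overlapped. Atp5mpl, a small proteolipid, was at 12.85, 12.55, 12.60 and 12.97 on knockout 1 to 4, against 12.84, 12.64, 12.65, 12.60 and 12.68 on wild type 1 to 5, a difference of 0.066. Atp5l, subunit g, was at 13.32, 13.25, 13.33 and 13.30 on knockout 1 to 4, against 13.34, 13.26, 13.40, 13.19 and 13.39 on wild type 1 to 5, a difference of -0.016. Atp5g1 and Atp5g2 encode the same mature c subunit of the proton-driven ring. Atp5g1 was at 11.53, 11.35, 11.34 and 11.71 on knockout 1 to 4, against 11.66, 11.42, 11.42, 11.37 and 11.43 on wild type 1 to 5, a difference of 0.025. Atp5g2 was at 9.77, 9.74, 9.71 and 10.38 on knockout 1 to 4, against 9.88, 9.97, 9.93, 9.70 and 10.01 on wild type 1 to 5, a difference of 0.0022. Both were highest on knockout 4.

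The near-zero difference of some ATP synthase genes covered a wide spread among the knockout arrays. Atp5k, subunit e, which takes part in joining ATP synthase into dimers, was at 8.97, 8.77, 8.39 and 10.25 on knockout 1 to 4, against 8.77, 9.22, 9.13, 8.97 and 9.30 on wild type 1 to 5. Knockout 4 was the highest and knockout 3 the lowest of the 9 arrays, and the means were 9.10 ± 0.81 (SD, n = 4) in knockout and 9.08 ± 0.21 (SD, n = 5) in wild type. Atp5md, a small subunit also known as DAPIT, was at 8.71, 9.07, 8.79 and 10.20 on knockout 1 to 4, against 8.88, 9.12, 9.27, 9.15 and 9.33 on wild type 1 to 5. Knockout 4 again stood above the rest, with means of 9.19 ± 0.69 (SD, n = 4) in knockout and 9.15 ± 0.17 (SD, n = 5) in wild type, and the further Atp5md probe was above background on no array. Atp5j2, subunit f, was highest on knockout 1 and lowest on knockout 3, at 13.60 and 13.20, with a difference of 0.010. The per-array values of Ndufb4, Atp5k and Atp5md are given because of their spread, a choice made after their values were seen.

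The knockout arrays differed among themselves. Knockout 4 was the highest array for 31 of 56 probes (55.4%), where 21.3% of all probes were highest there. It was the lowest for 3 of 56 (5.36%), where 20.8% of all probes were lowest there. Knockout 4 had the widest spread over all probes too. The SD of their deviations from the mean of the 9 arrays was 0.25 there and 0.12 to 0.19 elsewhere. Knockout 3 was the lowest for 21 of 56 (37.5%), where 11.9% of all probes were lowest there. The SD was larger in knockout than in wild type for 47 of 56 probes, against 64.1% of all probes, with median SDs of 0.18 in knockout and 0.095 in wild type. Without knockout 4 it was larger for 28 of 56, against 50.6% of all probes, and the median SD in knockout was 0.099. Averaged over the 51 genes, the deviation from the mean of the 9 arrays was -0.0099, -0.085, -0.16 and 0.25 on knockout 1 to 4, against 0.012, 0.019, 0.0085, -0.064 and 0.030 on wild type 1 to 5.

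**Figure D3:**
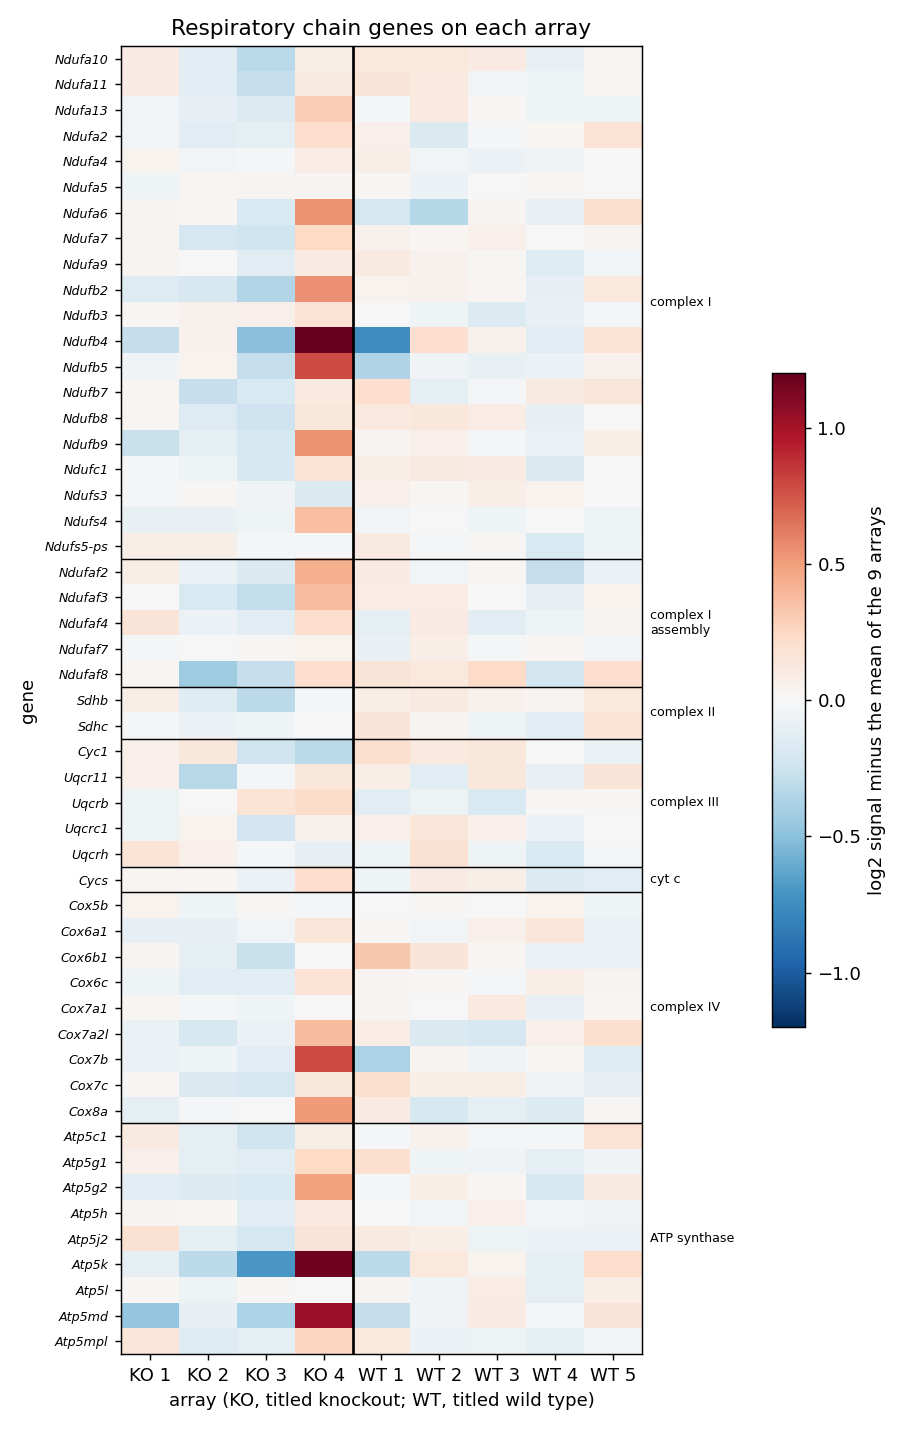
Log2 signal minus the mean of the 9 arrays (colour, red above and blue below the mean) for the 51 respiratory chain genes (rows, by complex) on the 4 knockout arrays at the left and the 5 wild-type arrays at the right of the black line. Knockout 4 is red in most rows, most strongly for Ndufb4, Atp5k and Atp5md, and knockout 3 is mostly blue.

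The complexes did not share this pattern to the same degree. The mean deviation of complex I was -0.025, -0.066, -0.17 and 0.28 on knockout 1 to 4, against -0.0061, 0.0082, 0.0058, -0.060 and 0.040 on wild type 1 to 5. That of ATP synthase was -0.018, -0.12, -0.23 and 0.39 on knockout 1 to 4, against -0.020, 0.0089, 0.015, -0.088 and 0.060 on wild type 1 to 5. Both were highest on knockout 4 and lowest on knockout 3. Within ATP synthase, Atp5k and Atp5md lay at 1.17 and 1.03 on knockout 4 and the other genes at -0.0045 to 0.48. Complex IV was at -0.034, -0.097, -0.098 and 0.23 on knockout 1 to 4, against 0.044, -0.013, -0.0097, -0.0043 and -0.021 on wild type 1 to 5, again with knockout 4 on top. Complex III was at 0.032, -0.018, -0.068 and -0.0018 on knockout 1 to 4, against 0.034, 0.052, 0.021, -0.067 and 0.015 on wild type 1 to 5, where knockout 4 lay among the other arrays. That mean leaned on Cyc1, at -0.33 on knockout 4. Uqcrb, Uqcr11 and Uqcrc1 were at 0.22, 0.14 and 0.053 there and Uqcrh at -0.096. Complex II, with 2 genes, was at 0.028, -0.11, -0.19 and -0.0074 on knockout 1 to 4, against 0.12, 0.070, -0.0075, -0.047 and 0.14 on wild type 1 to 5, with wild type 5 highest and knockout 3 lowest. The assembly factors were at 0.046, -0.15, -0.17 and 0.25 on knockout 1 to 4, against 0.029, 0.071, 0.021, -0.13 and 0.033 on wild type 1 to 5. Since complexes II and III hold few genes, no difference between complexes was tested.

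**Figure D4:**
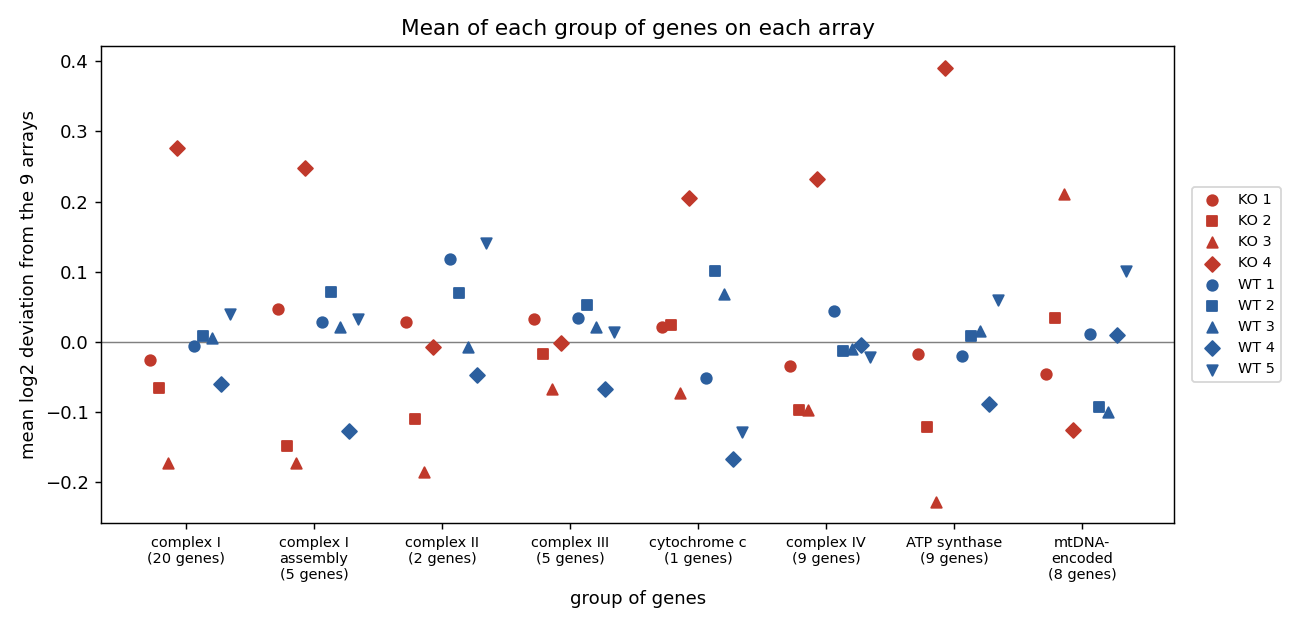
Mean log2 deviation from the mean of the 9 arrays (y axis) for each complex and for the genes encoded by mitochondrial DNA (x axis, number of genes in brackets), with one symbol per array, knockout in red at the left and wild type in blue at the right of each group. Knockout 4 lies at 0.39 for ATP synthase and 0.28 for complex I, above every other array, but near 0 for complexes II and III.

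On knockout 4 the highest deviations were those of Ndufb4 (1.19), Atp5k (1.17), Atp5md (1.03), Cox7b (0.78) and Ndufb5 (0.78), and the lowest those of Cyc1 (-0.33) and Ndufs3 (-0.17). On knockout 3 Atp5k (-0.70), Ndufb4 (-0.50) and Atp5md (-0.38) were the lowest and Uqcrb (0.17) the highest. Knockout 4 also had the lowest median signal before normalization, 133.2, and the neuronal and oligodendrocyte marker lists had means of -0.40 and -0.49 on it. Their members did not all go that way. Nefm, Rbfox3, Syn1, Mobp, Mog, Cnp, Fa2h and Trf had their lowest value on knockout 4. Opalin had its highest there, 9.32, and Syt1 and Slc17a7 lay among the other arrays. The neuronal list was at -0.080, 0.073, 0.11 and -0.40 on knockout 1 to 4, against -0.024, -0.017, 0.15, 0.25 and -0.061 on wild type 1 to 5, and the oligodendrocyte list at -0.13, -0.059, -0.18 and -0.49 on knockout 1 to 4, against 0.41, 0.22, 0.43, -0.16 and -0.035 on wild type 1 to 5. The mean of the astrocyte markers was lowest on knockout 3, at -0.17, and was -0.14 on knockout 4. Of these markers, Aqp4, Fgfr3 and Apoe had their lowest and Slc1a2 and S100b their highest value on knockout 4. The microglial and endothelial lists lay at 0.0074 and 0.071 on knockout 4. Wild type 1 had the highest median signal, 209.8. It was lowest for 4 of 56 member probes, Ndufb4, Ndufb5 and Cox7b among them, and highest for 9. That is 7.14% and 16.1%, where 12.1% and 11.9% of all probes were. Knockout 3, with the lowest mean over the 51 genes, had a median signal of 182. The part of signal strength and of cell composition in these values was not tested.

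Without knockout 4 the members leaned to lower means in the knockout. Knockout 4 is singled out because the members' mean was highest on it. Leaving it out therefore lowers their knockout mean by construction and is no separate evidence of a difference. The reverse holds for knockout 3, where their mean was lowest. With knockout 4 left out, 13 of the 51 genes had a higher and 38 a lower mean, with a median difference of -0.085, where the median over all probes was -0.0018. At an unadjusted p under 0.05 there were 10 of 56 probes (17.9%) lower and 0 higher, where 6.22% of all probes were lower and 7.11% higher. They were Ndufb2 (-0.26), Ndufb9 (-0.21), Ndufa7 (-0.16) and Ndufb8 (-0.18) of complex I, its assembly factors Ndufaf8 (-0.33) and Ndufaf3 (-0.19), Sdhb (-0.21), Cox6c (-0.13), Atp5md (-0.29) and Atp5k (-0.37). None passed after adjustment (limma, smallest adjusted p = 0.169, n = 3 and 5), and 0.0244% of all probes did. Without knockout 3 instead, 30 genes had a higher and 21 a lower mean, with a median difference of 0.036, and 1 of 56 probes was higher and 0 lower at an unadjusted p under 0.05, where 5.51% and 4.86% of all probes were.

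Genes with 2 probes above background showed how far a value followed the gene rather than the probe. Across the 9 arrays the correlation of the pair was r = 0.93 for Ndufs3, 0.92 for Ndufs4, 0.84 for Cox6a1, 0.72 for Cox6b1 and 0.39 for Cox5b, given as a description, since both probes read the same labelled RNA on each array. Differences had the same sign on both probes of all 5 genes.

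The subunits encoded by mitochondrial DNA had 9 named probes, 8 of them above background. None passed after adjustment, and 1, ND5, a proton-pumping subunit of complex I, was at an unadjusted p under 0.05, with a difference of 0.73 (SE 0.27, adjusted p = 0.343, limma). ND5 was at 8.24, 9.10, 9.35 and 8.89 on knockout 1 to 4, against 8.67, 8.35, 7.50, 8.08 and 8.24 on wild type 1 to 5. ND4L was at 11.09, 10.64, 11.01 and 9.86 on knockout 1 to 4, against 10.90, 10.90, 11.04, 11.11 and 11.34 on wild type 1 to 5, lowest on knockout 4, a difference of -0.41. The others, ND1, ND4, ND6, CYTB, COX2 and ATP6, differed by -0.072 to 0.038. Their mean deviation was -0.045, 0.034, 0.21 and -0.13 on knockout 1 to 4, against 0.011, -0.093, -0.10, 0.0091 and 0.10 on wild type 1 to 5. These means rested on single genes, as seen when each was left out after its values were known. Without ND4L, which lay at -1.02 on knockout 4, the mean of the other 7 was 0.0016 on knockout 4 and 0.22 on knockout 3. Without ND5, which lay at 0.86 on knockout 3 and -0.99 on wild type 3, it was 0.12 on knockout 3, below 0.15 on wild type 5. Several of these probes are among the brightest on the array, where quantile normalization gives equal values to probes of equal rank, as for CYTB, at 15.42 on all arrays but knockout 4.

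In 5 other mitochondrial gene lists 0 of 41 genes passed the threshold (limma) and 4 (9.76%) were at an unadjusted p under 0.05, where 11.5% of all probes were. Of 14 further assembly factors 1 was at that level, Sdhaf3, which helps to mature complex II, with a difference of 0.20 (adjusted p = 0.414), and the list's median was 0.0092. Of 8 genes of the tricarboxylic acid cycle and pyruvate entry 0 were at that level, with 7 higher and 1 lower mean and a median of 0.049. Mdh2, mitochondrial malate dehydrogenase, differed by 0.18. Of 12 carriers, channels and inner-membrane partners 2 were higher and 1 lower at that level. These were Etfa, which feeds electrons from fatty acid oxidation into the chain, at 0.37 (adjusted p = 0.245), the carrier Slc25a27, also known as UCP4, at 0.27 (adjusted p = 0.274), and the creatine kinase Ckb at -0.17 (adjusted p = 0.374). The outer-membrane channels Vdac1 and Vdac3 differed by -0.051 and 0.49 (adjusted p = 0.754 and 0.445). Of 4 regulators of mitochondrial gene expression and 3 antioxidant proteins 0 were at that level. They included Ppargc1b, a coactivator of respiratory genes, at -0.18 and Prdx5, a peroxiredoxin, at 0.0040. Each of these 5 lists had its highest mean deviation on knockout 4, as the nuclear subunits did. It was 0.098 there for the assembly factors, 0.13 for the tricarboxylic acid cycle, 0.092 for the regulators, 0.10 for the carriers and 0.23 for the antioxidant proteins. The means of the regulators and carriers leaned on single genes. Ssbp1 was at 8.38 on knockout 4 and at 7.67 to 7.84 on the other arrays, while Ppargc1b had its lowest value there, 7.67. Vdac3 was at 9.33 there and at 7.94 to 8.97 on the others, while Slc25a22 and Gpd2 were at their lowest. In the tricarboxylic acid cycle list Mdh2 was at 11.37 on knockout 4 and at 10.38 to 11.15 on the others. Ogdh of that list and the assembly factors Acad9 and Foxred1 had their lowest value on knockout 4. The antioxidant proteins were lowest on knockout 3, at -0.22, the tricarboxylic acid cycle genes on wild type 2, at -0.072, and the regulators on knockout 1, at -0.052.

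Under the other readings of the labels no member probe passed either. Each of these readings puts arrays on which NeoR-S was not above background in the knockout group. Grouped by the genotype characteristic, 1 of 56 probes was at an unadjusted p under 0.05, the dimmer probe of Cox5b with a difference of 0.18 (adjusted p = 1, limma), where 4.09% of all probes were. With titles read through the processed table there were 0 (of all probes 3.76%), and with the characteristic read through it 0 as well (2.39%). In these 3 readings, in the same order, the median over the 51 genes was -0.024, -0.041 and 0.029. Ndufb3 differed by -0.11, -0.014 and 0.043, and Sdhb by 0.13, 0.040 and -0.090.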

How the data were processed

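Total RNA of each brain was labelled with biotin and hybridised to a single-colour Illumina bead array, per the labels' protocols. The authors deposited linear signal intensity values without normalization, per the file headers, with a detection fraction beside each. Since that fraction is near 1 for bright probes, 1 minus it served as the detection p. The authors also deposited log2 values, made by steps that the labels and headers do not state. Array by array they equalled the log2 of the quantile-normalized signals without background correction, with a largest difference of 0.0051. The alternative with these values is therefore close to the one without background correction. In the deposited files 4 arrays lie under different samples in the 2 kinds of value, and titles and genotype characteristics differ for 6 samples. Titles and the signal table were used, under which NeoR-S was above background on 4 of 4 knockout and 0 of 5 wild-type arrays. The other readings were tried as alternatives, and each puts arrays without that signal in the knockout group.

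Probes carry no gene name in the files. The NCBI gene number within the probe identifier was matched to a RefSeq gene table. Signals were corrected with limma's normexp method using the detection p (offset 16), quantile normalized and log2 transformed. Of 46116 probes 16375 passed the filter of a detection p under 0.05 on at least 4 arrays. Knockout minus wild type was fitted with limma 3.58.1 (lmFit and eBayes, R 4.3.3), two-sided, with Benjamini-Hochberg adjustment over all 16375 probes and a threshold of 0.05. The script was tested on simulated data. A gene with several probes was counted by its probe of highest mean signal. Signals of different probes were not set against each other, and the number of arrays limits the precision.

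Values on every array are given for complex II, for cytochrome c, for the 4 genes of smallest p in each other group, for genes with more than 1 measured probe and for isoform pairs. The members, the gene lists and this rule were chosen with earlier results of these data known. Alternatives were the filter, the background correction, the scaling, the deposited log2 values, array weights, a trended and robust prior, the replicate number as a block, the Xist level as a covariate and each array left out.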

Additional observations from a re-analysis of the deposited data

Results flagged for a closer look

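In groups of 4 or 5 arrays, the highest or lowest array was compared with its nearest neighbour by Dixon's criterion at the 95% level, and 9 of 130 groups of values had an array that far from the others. For independent values chance gives about 1 in 20. Some of these groups share genes, and the share over all probes is not given. Knockout 4 was that array in 4 of the 9. Of all probes 21.3% were highest and 20.8% lowest on that array. Knockout 4 was the low one for the dimmer Ndufs3 probe, at 7.71 where the nearest knockout array was at 8.36. It was the high one for the brighter Ndufs4 probe (11.98, nearest 11.56), for Cox7b (8.26, nearest 7.42) and for Atp5g2 (10.38, nearest 9.77). Wild type 4 was low for Ndufaf8 (7.81, nearest 8.15), for the mean deviation of the complex I assembly factors (-0.127, nearest 0.0212) and for that of all 51 genes (-0.0641, nearest 0.00847). Wild type 1 was high for Atp5g1 (11.66, nearest 11.43) and for the mean deviation of complex IV (0.0444, nearest -0.00433).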

How the results depend on the processing

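No respiratory chain probe passed the threshold under any of the alternatives, each array left out included. The number at an unadjusted p under 0.05, 2 as reported, was 1 by the genotype characteristic, 0 with titles and 0 with the characteristic read through the processed table. It was 4 without the filter, 0 without background correction, 0 with normexp on the signals alone, 4 with median scaling, 0 with the deposited log2 values, 6 with array weights, 0 with a trended and robust prior and 1 with Xist as a covariate. Leaving out 1 array gave 1 to 10, with 10 without knockout 4, 4 without knockout 2, and 1 without knockout 3 or without wild type 1, 2, 3 or 5.

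Over all probes the count past the threshold, 4 as reported, was 0 under each of the other 3 readings of the labels and 0 for probes above background on all 9 arrays. It was 11 without background correction, 12 with normexp on the signals alone, 2 with median scaling, 13 with the deposited log2 values, 7 with a trended and robust prior and 2 with Xist as a covariate. Leaving out 1 array gave 2 to 48, with 48 without knockout 1, 7 without knockout 3, and 2 without wild type 1, 2, 3 or 5.

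By the genotype characteristic the median of complex II was 0.052, cytochrome c was at -0.092, Ndufb3 at -0.11 and Sdhb at 0.13. With titles read through the processed table these were 0.0059, -0.11, -0.014 and 0.040. With the characteristic read through it the median of complex III was 0.0019. Leaving out 1 array gave complex III medians of -0.10 to 0.027, the highest of these without knockout 2. The cause was not tested in any of these cases. The sign of the difference turned for 43, 31 and 15 of 56 probes in those readings, for 13 without knockout 4, 12 with array weights and 6 or fewer in each other setting.

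Shared replicate numbers did not mark pairs: deviations of same-numbered arrays correlated at 0.10, 0.089, -0.31 and 0.011. With the replicate block 0 member probes passed, 1, Uqcrb, was at an unadjusted p under 0.05, and 1 of all probes passed. In alternatives chosen after seeing the data, 31 to 35 member probes were highest on knockout 4 and 15 to 21 lowest on knockout 3.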
